A study of Mus musculus with 24 samples.

Results

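Activated CD8 T cells that lacked Pou2af1 were compared with activated CD8 T cells that kept 1 working copy of the gene. The comparison used 8 of the 24 libraries of the study, chosen by their column names in the table of gene counts, with 4 knockout and 4 heterozygous libraries. Knockout (KO) cells carried CD4-Cre and floxed Pou2af1 on both alleles (fl/fl), and heterozygous (Het) cells carried CD4-Cre and 1 floxed allele (fl/+), so both groups held the Cre transgene. A further 4 CD8 libraries, from floxed cells without Cre that the titles call +/+, served as the study's control (WT) and shared in the estimate of the spread. All cells were sorted from the spleens of C57BL/6 mice aged 12 weeks and were stimulated in culture with antibodies to CD3 and CD28 for 2 days before polyadenylated RNA was sequenced. CD4-Cre is switched on in developing thymocytes before they choose the CD4 or the CD8 fate, so it acts in both lineages. The labels do not say whether same-genotype libraries came from separate mice, and the p-values rest on the spread among libraries, which may be partly technical.

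POU2AF1 (also called OCA-B or OBF-1) is a coactivator without a DNA-binding domain of its own that is tethered to octamer motifs through the POU factors OCT1 (Pou2f1) and OCT2 (Pou2f2). It is best known from B cells, where it is needed for germinal centres, and in CD4 T cells it has been tied to Il2 and Ifng and to memory. Pathways described below include the integrated stress response, in which phosphorylated eIF2 raises translation of ATF4 and ATF4 then activates genes of amino acid synthesis and uptake, and the type I interferon response, in which secreted interferon acts through its receptor on genes that carry interferon-stimulated response elements.

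The libraries held 14.4 M to 16.6 M gene counts in KO cells, 13.3 M to 14.7 M in Het cells and 12.6 M to 15.9 M in WT cells (M, mega). None of 9 measures of library quality separated KO from Het cells (lowest exact permutation p = 0.0857 for the scaling factor, two-sided, adjusted p = 0.514 over the 9, smallest p the design allows 0.0286). Cd8a, a coreceptor chain that defines the lineage, stood at 651 to 670 CPM (counts per M counts of the library, TMM-scaled) in KO cells and 687 to 758 CPM in Het cells. Marker sums of other cells overlapped: NK cell markers (8 genes) ran from 6.24 to 8.82 CPM in KO and from 7.18 to 12.0 CPM in Het cells, macrophage and dendritic cell markers (13 genes, Mrc1 and C1qa at 0 in all) from 7.31 to 20.3 CPM in KO and from 6.99 to 17.9 CPM in Het cells, and 6 of 8 neutrophil markers, S100a8 and S100a9 among them, had no count in any of the 8 libraries. B cell markers (17 genes, none at 0) summed to 412 to 452 CPM in KO and 420 to 502 CPM in Het cells, most of it from Ighm, at 336 to 386 CPM in KO and 374 to 409 CPM in Het cells. Xist, a transcript of female cells, was high in KO replicate 2 (1931 CPM) and in Het replicates 1 and 2 (1191 and 1751 CPM) and at most 2.19 CPM in the other KO and Het libraries, so 1 of 4 KO and 2 of 4 Het libraries were female. Neither group thus came from a single mouse, although the labels do not say how many mice there were. In several of the lists below, but not in all, KO replicate 2 stood apart from the other KO libraries or Het replicate 3 from the other Het libraries. In the interferon list KO replicate 3 was the KO library that stood apart. List medians that moved without such a library are given beside the values they touch.

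Pou2af1 (chr9:51213708-51240080 in GRCm38) fell in KO cells, where it had 2.19, 2.44, 1.47 and 0.759 CPM in replicates 1 to 4, against 16.4, 13.5, 16.2 and 15.7 CPM in Het cells. The values came from 11 to 36 counts per KO library and 190 to 230 per Het library, and the groups did not overlap. The log2 change was -3.16 (SE 0.26, edgeR quasi-likelihood adjusted p = 0.000141). The KO mean was 11.1% of the Het mean and 6.21% of the WT mean, and the Het mean was 55.9% of the WT mean. In bulk RNA, fewer cells that express a gene and less RNA per cell cannot be told apart, so the remaining counts do not say whether a few cells escaped deletion. The targeted gene therefore ordered the genotypes as labelled, in every library.

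Among 12612 genes tested, 2 passed an adjusted p of 0.05 (0.0159%), 1 lower (0.00793%), Pou2af1, and 1 higher (0.00793%), Tmod3. Tmod3, which encodes tropomodulin 3, a protein that caps the pointed ends of actin filaments, was higher in KO cells. It had 220, 196, 230 and 232 CPM in KO cells, against 110, 107, 114 and 99.0 CPM in Het cells, and 207, 218, 218 and 242 CPM in WT cells. KO and WT libraries overlapped, and every Het library lay below all of them. The KO mean was 219 ± 16.6 CPM and the Het mean 107 ± 6.22 CPM (SD, n = 4 each), a log2 change of 1.03 (SE 0.07, 95% interval 0.87 to 1.19, edgeR adjusted p = 4.44e-05). Het cells thus held 49.0% of the KO level and 48.6% of the WT level, while KO cells held 99.3% of the WT level. An earlier comparison of these data had already singled out Tmod3, so the value is a description of size rather than independent support.

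**Figure D1:**
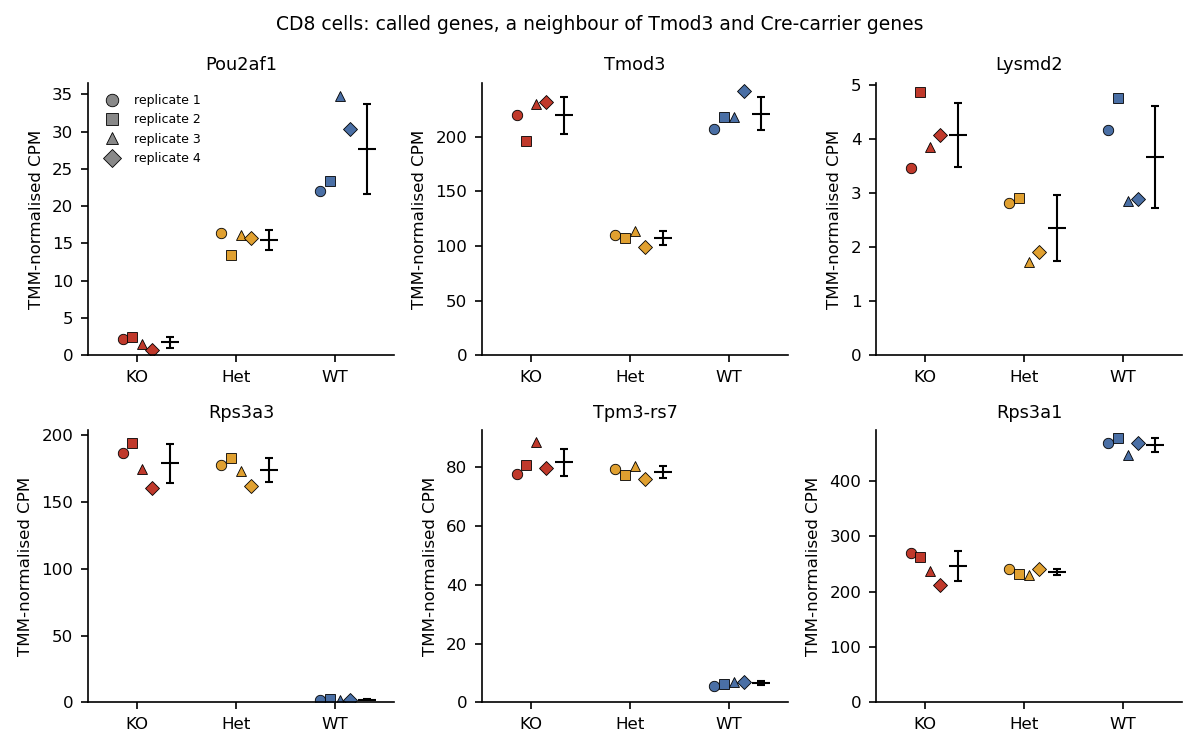
TMM-normalised CPM (vertical axes, from 0) of 6 genes in each KO, Het and WT CD8 library; marker shapes give the replicate number and bars the mean ± SD of 4 libraries. Pou2af1 is lowest in KO, Tmod3 is lowest in Het (107 CPM) with KO (219 CPM) beside WT, and the 3 genes of the lower row overlap between KO and Het and lie apart from WT.

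Tmod3 lies on the same chromosome as Pou2af1 (chr9:75497707-75559657), 24.3 Mb away. Lysmd2, the next tested gene beyond Tmod3 (chr9:75625741-75637771), was named after its values were seen. It had 3.47, 4.88, 3.86 and 4.07 CPM in KO cells, against 2.82, 2.91, 1.73 and 1.92 CPM in Het cells. The groups did not overlap, with a log2 change of 0.79 (SE 0.23, edgeR adjusted p = 0.622), which did not pass the test. Of 10 genes tested within 1 Mb of Tmod3, 1 was called and the median log2 change was 0.08, against a median of -0.0038 over all genes tested. Of the 152 genes tested within 10 Mb of Pou2af1, Pou2af1 was the only one called, and the median log2 change was -0.01. In 2 of the 152 all KO values lay above all Het values, against 1.42% of all genes tested, and in 3, Pou2af1 among them, all lay below, against 1.29%.

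Of the genes that an earlier analysis of these data found to differ between Cre carriers and controls, Tmod3 was the only one that passed the test between KO and Het cells. That list was chosen on these libraries and holds 10 genes, 8 of them tested. Rps3a3, a copy of a ribosomal protein gene, had 187, 194, 174 and 161 CPM in KO cells, against 178, 183, 173 and 162 CPM in Het cells, and a mean of 2.04 CPM in WT cells. Its log2 change between KO and Het was 0.04 (95% interval -0.15 to 0.23). Rps3a1, the parent ribosomal protein gene, averaged 246 ± 26.6 CPM in KO and 236 ± 5.83 CPM in Het cells (SD, n = 4 each), against 466 CPM in WT cells, and its KO to Het interval was -0.09 to 0.22. Tpm3 and its copy Tpm3-rs7, of the tropomyosin family that lies along actin filaments, had intervals of -0.12 to 0.09 and -0.08 to 0.20. Cd1d1 (log2 change -0.07), Gm8778 (-0.25) and 2010007H06Rik (0.28) had wider intervals, -0.82 to 0.32 for Gm8778. The interval of 2010007H06Rik ran from -0.28 to 0.84, and its 4 KO values lay above its 4 Het values. This gene lies on the same chromosome as Pou2af1, beyond its end (chr9:51278513-51284210), and in CD4 cells its log2 change was 1.09 (SE 0.37, edgeR unadjusted p = 0.0115, adjusted p = 1). Rps3a1 with Rps3a3, and Tpm3 with Tpm3-rs7, are similar in sequence, so the split of reads within each pair is uncertain.

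Beyond the called genes, 862 genes had an unadjusted p under 0.05 (6.83%), 521 of them higher (4.13%) and 341 lower (2.7%) in KO cells. All 4 KO values lay above all 4 Het values in 179 genes (1.42%) and below them in 163 (1.29%). The median standard error of a log2 change was 0.13, and the 95% interval lay within 0.5 of 0 for 7697 genes (61.0%). The 24 genes described next are the 12 of lowest p in each direction with a mean of at least 1 CPM. None of them passed the adjusted p, so they are given by their values, and their unadjusted p, which chose them, is no support.

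**Figure D2:**
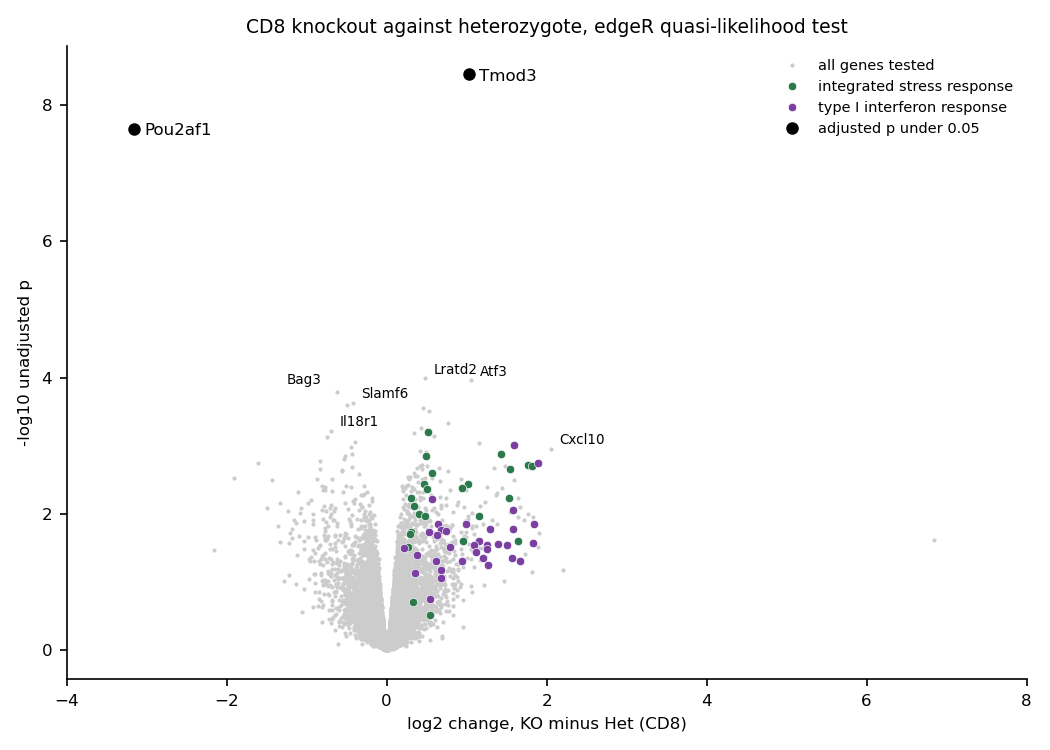
Log2 change of KO against Het CD8 cells (horizontal axis) and -log10 of the unadjusted edgeR p (vertical axis) for the 12612 genes tested; coloured points are members of 2 lists and black points the called genes. Pou2af1 and Tmod3 stand alone at the top, and the integrated stress response and interferon members lie to the right of 0.

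The 12 genes with KO above Het had log2 changes of 0.34 to 2.05 (adjusted p 0.341 to 0.622), and 11 of them did not overlap. Lratd2 had 74.6, 71.7, 74.1 and 72.4 CPM in KO cells, against 48.3, 50.0, 63.3 and 48.6 CPM in Het cells. Atf3, a stress-induced factor of the ATF/CREB family, had 24.1, 37.1, 22.2 and 28.0 CPM in KO cells, against 11.9, 11.3, 17.1 and 13.2 CPM in Het cells. Both genes separated the groups, with Het replicate 3 the nearest Het library to KO (log2 changes 0.48, SE 0.09, and 1.06, SE 0.19, edgeR adjusted p = 0.341 each). Irgm1, an interferon-inducible GTPase, had 234, 235, 217 and 226 CPM in KO cells, against 158, 158, 199 and 148 CPM in Het cells. Cxcl10, an interferon-induced chemokine that binds CXCR3, had 8.09, 12.7, 5.12 and 13.9 CPM in KO cells, against 1.49, 1.78, 4.29 and 2.05 CPM in Het cells. Rtp4, another interferon-induced gene, had 19.3, 20.2, 9.19 and 19.2 CPM in KO cells, against 3.64, 4.83, 9.78 and 4.31 CPM in Het cells, and was the one of the 12 whose groups overlapped. In Cxcl10 and Rtp4 the lowest KO library and the highest Het library both carried the number 3. The other 7 were Ifrd1 (log2 change 0.52), a transcriptional coregulator, Thrb (0.77), a thyroid hormone receptor, Prrg4 (0.43), Mthfd2 (0.51), a mitochondrial folate enzyme, Irf1 (0.34), a factor of the interferon response, Lmo4 (0.59), a LIM-domain protein, and Jdp2 (1.15), an AP-1 repressor.

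The 12 genes with KO below Het had log2 changes of -0.84 to -0.40 (adjusted p 0.41 to 0.622), and 11 did not overlap. Bag3, a co-chaperone of HSP70, had 5.72, 5.15, 6.80 and 6.96 CPM in KO cells, against 10.3, 9.73, 8.87 and 9.10 CPM in Het cells. Slamf6, a SLAM family receptor of lymphocytes, had 70.1, 66.6, 70.6 and 70.9 CPM in KO cells, against 98.1, 100, 83.9 and 91.5 CPM in Het cells. Their log2 changes were -0.62 (SE 0.12) and -0.43 (SE 0.08), with edgeR adjusted p of 0.41 and 0.438. Both chains of the interleukin 18 receptor were among the 12. Il18r1, the ligand-binding chain, had 81.1, 54.1, 78.9 and 61.0 CPM in KO cells, against 114, 140, 103 and 88.2 CPM in Het cells. Il18rap, the accessory chain, had 61.9, 49.6, 61.4 and 50.6 CPM in KO cells, against 71.5, 75.4, 79.1 and 68.1 CPM in Het cells. Neither chain overlapped between the groups (log2 changes -0.69, SE 0.15, and -0.40, SE 0.09, edgeR adjusted p = 0.574 and 0.622). The WT means, 83.6 CPM for Il18r1 and 63.0 CPM for Il18rap, lay between those of KO and Het cells. The remaining 8 were the carboxypeptidases Cpm (log2 change -0.49) and Cpd (-0.43), Sytl2 (-0.74), a vesicle tethering protein, the endolysosomal channel Mcoln2 (-0.43), Nlrx1 (-0.52), a mitochondrial NOD-like receptor, the myosin Myo1f (-0.53), the kinase Lrrk1 (-0.84) and Ypel2 (-0.45). The WT mean lay between the KO and Het means in all 24 of these genes, against 46.7% of all genes tested, a share that a choice of wide KO to Het gaps by itself raises.

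Genes of the integrated stress response and amino acid synthesis lay higher in KO cells as a group, none of them past the adjusted p. Of 24 tested, 24 had a positive log2 change, 22 had an unadjusted p under 0.05 with KO higher and 10 did not overlap, with a median log2 change of 0.53 (range 0.26 to 1.82, lowest edgeR adjusted p 0.574). Over all genes tested the median was -0.0038, with 6183 above 0 (49%) and 6429 below (51%). Among all genes, 521 (4.13%) had an unadjusted p under 0.05 with KO higher. In 179 (1.42%) all KO values lay above all Het values. Members of a list can move together, so these counts are not separate results. The mean level of the list, in log2 CPM, was 6.08, 6.71, 5.67 and 5.86 in KO cells, against 5.06, 5.10, 5.81 and 5.30 in Het cells, and 5.71, 5.47, 5.74 and 5.96 in WT cells. KO replicates 3 and 4 thus lay within the range of WT, KO replicate 3 lay below Het replicate 3, and Het replicates 1, 2 and 4 lay below every WT library. Without KO replicate 2 the median was 0.39, with 24 of 24 above 0 and 17 at an unadjusted p under 0.05, and without Het replicate 3 it was 0.61, with 24 of 24.

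Atf4, the transcription factor of the pathway, had 495, 619, 431 and 426 CPM in KO cells, against 318, 310, 396 and 382 CPM in Het cells. Mthfd2, a target of ATF4, had 425, 489, 342 and 339 CPM in KO cells, against 259, 254, 313 and 292 CPM in Het cells. Neither overlapped between the groups, and in both the gap was widest in replicates 1 and 2 (log2 changes 0.49, SE 0.12, and 0.51, SE 0.11, edgeR adjusted p = 0.622 and 0.574). Cebpb, a leucine zipper partner of ATF4, had 7.60, 15.7, 7.15 and 8.96 CPM in KO cells, against 3.19, 2.63, 6.84 and 1.98 CPM in Het cells. Trib3, a pseudokinase induced by ATF4, had 38.4, 106, 22.2 and 28.3 CPM in KO cells, against 10.4, 11.7, 24.1 and 11.2 CPM in Het cells, where Het replicate 3 exceeded KO replicate 3. The list of amino acid and nutrient transporters (16 tested) shares members with this pathway. In it 10 lay above 0, 9 of them at an unadjusted p under 0.05, and 4 did not overlap (median log2 change 0.29, or 0.17 without KO replicate 2). The shares over all genes tested were 4.13% with such a p and KO higher, and 1.42% without overlap and KO above. Slc7a11, the cystine transporter subunit, had 5.72, 13.0, 2.87 and 4.07 CPM in KO cells, against 0.891, 1.49, 2.86 and 1.98 CPM in Het cells, a log2 change of 1.82. Its partner Slc3a2 (0.57), the glycine transporter Slc6a9 (1.59) and the glutamine transporter Slc38a2 (0.34) followed in p, with adjusted p of 0.622 each by edgeR.

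ATF4 heterodimers bind amino acid response elements, which were searched as TGATGNAAT on both strands of RefSeq promoter windows (build GRCm38.p6) around each gene's start. The letters occurred in 2 of 22 listed genes with a window (9.09%), against 43 of 9086 tested genes with one (0.473%). The other 20 windows of the list lack these exact letters. Other spellings of the element were not searched, so the count does not say that those genes lack one. Both matching windows are shown because they hold the element searched, 5′ to 3′ on the strand of the gene, with the match, in either orientation, in capitals. Pycr1 is an enzyme of proline synthesis (chr11:120643812-120643871, minus strand), and Nupr1 a stress-induced nuclear protein (chr7:126625542-126625601, minus strand).
Pycr1: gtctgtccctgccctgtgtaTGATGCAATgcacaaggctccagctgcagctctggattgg
Nupr1: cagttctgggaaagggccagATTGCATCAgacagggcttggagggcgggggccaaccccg
Pycr1 had 9.06, 18.1, 5.12 and 6.00 CPM in KO cells, against 3.12, 3.55, 6.77 and 3.70 CPM in Het cells (log2 change 1.16, SE 0.39, edgeR adjusted p = 0.658). Nupr1 had 1.52, 4.39, 0.491 and 0.896 CPM in KO cells, against 0.446, 0.213, 1.13 and 0.547 CPM in Het cells (log2 change 1.64, SE 0.65, edgeR adjusted p = 0.677). In both genes KO replicate 2 was the highest library and replicate 3 was higher in Het than in KO cells. Among replicates 3 and 4 alone the direction turned for Nupr1 (-0.24). The Nupr1 value of Het replicate 2 (0.213 CPM) lay at the floor of 0.181 to 0.239 CPM. A match of letters is a description and does not show binding. The list was made of genes of this pathway, so the share with a match says nothing of KO against Het cells.

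Type I interferon response genes formed the list with the highest median. Of 34 tested, 34 had a positive log2 change, 29 of them at an unadjusted p under 0.05, and 2 did not overlap, with a median of 1.11 (range 0.22 to 1.89, lowest edgeR adjusted p 0.622). Among all genes tested, 4.13% had such a p with KO higher, and 1.42% did not overlap with KO above. The mean level of the list, in log2 CPM, was 5.15, 5.24, 4.40 and 5.31 in KO cells, against 3.68, 3.77, 4.87 and 3.12 in Het cells, and 4.77, 4.12, 3.42 and 5.07 in WT cells. KO replicate 3 lay below Het replicate 3, and the WT libraries spanned nearly the whole range of the other groups. Without Het replicate 3 the median was 1.61, with 33 of 34 at an unadjusted p under 0.05. Without KO replicate 2 it was 0.95, with 16 of 34, and without KO replicate 3 it was 1.24, with 31 of 34.

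Ifit3b, a member of the interferon-induced IFIT family, had 2.55, 1.46, 1.68 and 3.24 CPM in KO cells, against 0.371, 0.497, 1.20 and 0.342 CPM in Het cells. Oas2, a sensor of double-stranded RNA, had 2.19, 1.95, 1.47 and 4.00 CPM in KO cells, against 0.743, 0.355, 1.43 and 0.684 CPM in Het cells. These were the 2 genes of the list without overlap (log2 changes 1.89, SE 0.48, and 1.58, SE 0.51, edgeR adjusted p = 0.622 and 0.658). Both had few counts, with Het values down to 0.342 and 0.355 CPM, near the floor of 0.181 to 0.239 CPM. The Oas2 groups lay apart by little (KO replicate 3 at 1.47 and Het replicate 3 at 1.43 CPM). Parp14, an ADP-ribosyltransferase, had 513, 563, 371 and 497 CPM in KO cells, against 309, 332, 419 and 250 CPM in Het cells (log2 change 0.57, SE 0.17).

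Interferon-stimulated response elements were searched as GAAANNGAAA on both strands of the same windows. They were found in 13 of 24 listed genes with a window (54.2%), against 354 of 9086 tested genes (3.9%). The list was made of known interferon response genes, a class described by these elements. The share therefore follows from membership and says nothing of KO against Het cells. A match of letters does not show binding. The elements of 5 genes are shown because these letters are what the list most plainly shares, with matches in capitals (the second match of Ifit3 runs past the printed end). Isg15 (chr4:156200857-156200916, minus strand) encodes a ubiquitin-like modifier, Ifit1 (chr19:34640765-34640824, plus strand) and Ifit3 (chr19:34583353-34583412, plus strand) encode IFIT proteins, Rsad2 (chr12:26456533-26456592, minus strand) encodes viperin, and Bst2 (chr8:71537563-71537622, minus strand) encodes tetherin.
Isg15: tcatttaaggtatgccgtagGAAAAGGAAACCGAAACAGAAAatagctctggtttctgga
Ifit1: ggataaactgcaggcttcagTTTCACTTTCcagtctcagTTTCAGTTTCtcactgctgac
Ifit3: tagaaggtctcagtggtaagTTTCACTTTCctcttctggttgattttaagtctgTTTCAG
Rsad2: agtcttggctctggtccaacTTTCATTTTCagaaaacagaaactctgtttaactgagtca
Bst2: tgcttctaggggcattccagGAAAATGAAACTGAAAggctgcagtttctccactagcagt
Isg15 had 32.1, 33.8, 17.5 and 38.3 CPM in KO cells, against 5.94, 5.54, 26.9 and 4.65 CPM in Het cells. Rsad2 had 11.4, 10.7, 4.21 and 13.9 CPM in KO cells, against 1.63, 1.28, 9.40 and 0.479 CPM in Het cells. In both, 3 KO libraries lay above every Het library, and replicate 3 had the opposite order (log2 changes 1.50, SE 0.61, and 1.66, SE 0.76, edgeR adjusted p = 0.698 and 0.729). Log2 changes were 1.09 for Ifit1, 1.30 for Ifit3 and 0.38 for Bst2, whose groups overlapped as well. Ifit3 and Ifit3b are near-identical copies, so the split of reads between them is uncertain.

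**Figure D3:**
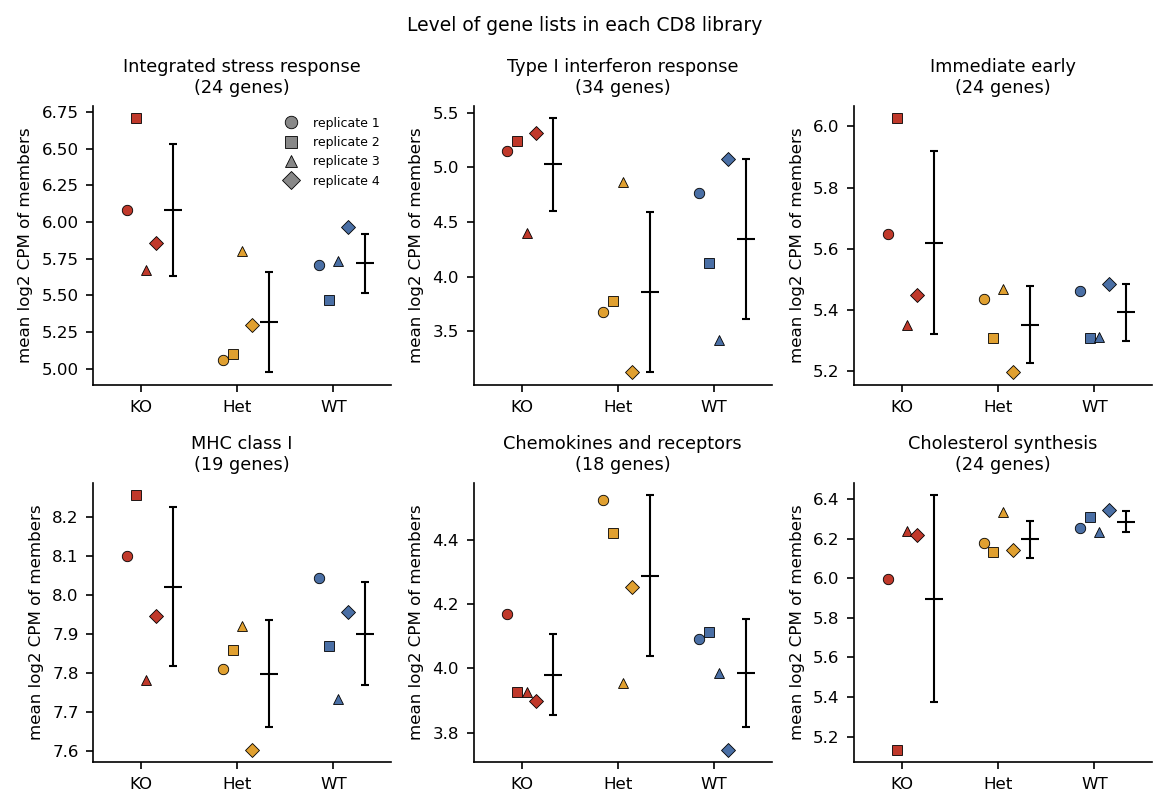
Mean log2 CPM over the tested members of 6 gene lists (vertical axes, which do not start at 0) in each KO, Het and WT CD8 library; shapes give the replicate number and bars the mean ± SD of 4 libraries. KO replicate 2 is highest for the stress response (6.71) and lowest for cholesterol synthesis (5.13), and replicate 3 is lower in KO than in Het for the interferon list (4.40 and 4.87).

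Immediate early genes, which T cell receptor signals switch on within minutes to hours, were above 0 in 22 of 24 tested, 7 of them at an unadjusted p under 0.05, and had a median log2 change of 0.26. Such a p with KO higher occurred in 4.13% of all genes tested. After Atf3, the members of lowest p were Cd69 and Klf4, above, and Jund, below. Cd69, an activation marker that retains lymphocytes in tissue, had 340, 415, 288 and 277 CPM in KO cells, against 267, 242, 250 and 251 CPM in Het cells. Its groups did not overlap, with a log2 change of 0.39 (SE 0.10, edgeR adjusted p = 0.622). Klf4 had a log2 change of 1.00 and Jund of -0.18. KO replicate 2 decided the list: its mean log2 CPM there was 6.03, against 5.35 to 5.65 in the other KO libraries and 5.19 to 5.47 in Het cells, and without it 16 of 24 members lay above 0 with a median of 0.08. The list of T cell receptor complex and proximal signalling genes had a median of 0.03 over 28 tested, or -0.05 without KO replicate 2.

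Genes of MHC class I and peptide loading, which display peptides to CD8 cells and are raised by interferon, had positive log2 changes in 19 of 19 tested, 7 of them at an unadjusted p under 0.05 and none without overlap (median 0.23). The shares with KO higher were 4.13% and 1.42% over all genes tested. The peptide transporter genes Tap1 and Tap2 had log2 changes of 0.34 and 0.29, and the class I genes H2-Q4 and H2-Q7, which are related copies, of 0.33 and 0.44, with edgeR adjusted p of 0.664 to 0.699 over these 4. Without KO replicate 2 none of the 19 had an unadjusted p under 0.05 and the median was 0.15. The WT mean lay between the Het and KO means in 19 of 19 of these genes, in 34 of 34 interferon genes and in 24 of 24 stress response genes, Het lowest each time. Over all genes tested this order held in 2889 of 12612. Members of a list come from the same libraries, so such a count is not many separate results. The interferon list alone ran from 3.42 to 5.07 log2 CPM among WT libraries.

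Chemokine ligands and receptors leaned to lower values in KO cells, none past the adjusted p. Of 18 tested, 13 lay below 0, 6 of them at an unadjusted p under 0.05, against 1 above, and the median log2 change was -0.34. Cxcl10, described above, was that 1 gene. Over all genes tested, 2.7% had such a p with KO lower and 4.13% with KO higher. Cxcr5, the receptor for the follicular chemokine CXCL13, had 9.97, 8.43, 8.90 and 7.86 CPM in KO cells, against 12.3, 16.0, 10.4 and 12.9 CPM in Het cells, without overlap (log2 change -0.55, SE 0.15, edgeR adjusted p = 0.622). Cxcr6, a receptor of tissue-homing T cells, had 9.18, 6.27, 5.89 and 4.14 CPM in KO cells, against 13.7, 13.8, 7.45 and 9.72 CPM in Het cells. Ccl1, a ligand of CCR8, had 2.92, 0.975, 5.82 and 2.21 CPM in KO cells, against 13.0, 9.94, 3.99 and 17.7 CPM in Het cells. Both overlapped, through Het replicate 3, which was the lowest Het library in each (log2 changes -0.81, SE 0.26, and -1.90, SE 0.52). The mean level of the list was 3.90 to 4.17 log2 CPM in KO, 3.95 to 4.52 in Het and 3.75 to 4.11 in WT cells, so the KO and WT ranges overlapped and 3 of 4 Het libraries lay above both.

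Receptors and products of effector CD8 cells were mixed in direction. The list of effector factors and type 1 genes had 11 of 19 above 0 and a median log2 change of 0.13, or 0.0084 without KO replicate 2. Il12rb1 and Il12rb2, the chains of the interleukin 12 receptor, lay opposite to the interleukin 18 receptor chains. Il12rb1 had 58.9, 76.1, 53.6 and 61.1 CPM in KO cells, against 37.7, 36.9, 51.5 and 49.7 CPM in Het cells, without overlap (log2 change 0.51, SE 0.13, edgeR adjusted p = 0.622). Il12rb2 overlapped, with a log2 change of 0.66 (SE 0.24). Ifng, the cytokine that both receptors promote, had 231, 225, 271 and 255 CPM in KO cells, against 346, 312, 257 and 260 CPM in Het cells. Its groups overlapped, and its log2 change was -0.26 (SE 0.12, 95% interval -0.52 to 0.0041, edgeR adjusted p = 0.738). Within replicates 1 and 2 alone the Ifng change was -0.53 and passed the test (edgeR adjusted p = 0.0326). Within replicates 3 and 4 alone it was 0.03 (edgeR adjusted p = 0.998). The split was chosen after the data were seen, and replicates 1 and 2 were not matched for sex. There 242 of 12570 genes passed (1.93%). The difference of the Ifng change between the pairs did not pass (edgeR adjusted p = 0.388). Of 17 cytotoxic granule and death ligand genes tested, 7 lay above 0 (median -0.04). Perforin, Prf1, had 135, 122, 105 and 104 CPM in KO cells, against 156, 136, 143 and 119 CPM in Het cells, and granzyme B, Gzmb, averaged 2667 ± 391 CPM in KO and 2138 ± 483 CPM in Het cells (SD, n = 4 each). Their log2 changes were -0.25 and 0.32 (edgeR adjusted p = 0.677 and 0.764), and both overlapped between groups. Medians were 0.06 for naive and memory genes (21 tested), 0.07 for inhibitory receptor and exhaustion genes (14) and 0.10 for cytokine genes (15). They were 0.06 for interleukin 2 receptor and STAT5 genes (18) and 0.03 for SLAM family and follicular helper genes (13). In this order 1 (KO lower), 1 (lower), 0, 2 (KO higher) and 2 (lower) members had an unadjusted p under 0.05. Over all genes tested 4.13% had such a p with KO higher and 2.7% with KO lower, so these small counts are not read as results. Without KO replicate 2 the median was -0.08 for naive and memory genes, -0.03 for inhibitory receptor genes and 0.12 for interleukin 2 receptor genes, and without Het replicate 3 it was 0.06 for SLAM family genes.

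Apart from cholesterol synthesis, the metabolic and growth lists had small medians. Cholesterol synthesis genes lay below 0 in 23 of 24 tested, none at an unadjusted p under 0.05, with a median log2 change of -0.26. The list averaged 6.00, 5.13, 6.24 and 6.22 log2 CPM in KO cells, against 6.18, 6.13, 6.34 and 6.14 in Het cells. KO replicate 1 lay a little and KO replicate 2 far below the Het range, and without replicate 2 of KO 15 of 24 lay below 0 with a median of -0.06. With the level of the Y-linked gene Ddx3y in the fit, 9 of 24 had an unadjusted p under 0.05 with KO lower. Over all genes tested in that fit, 364 of 12612 did. The members of lowest p were Ggps1 (log2 change 0.14), a prenyl diphosphate synthase, and the sterol pathway enzymes Ebp (-0.20), Nsdhl (-0.26) and Idi1 (-0.33). Nuclear oxidative phosphorylation genes lay below 0 in 47 of 54 (median -0.08), led by the complex I subunit gene Ndufb8, which had 63.9, 55.6, 63.8 and 60.7 CPM in KO cells, against 69.3, 69.0, 68.4 and 75.7 CPM in Het cells (log2 change -0.21, SE 0.07, edgeR adjusted p = 0.658). Cell cycle genes lay below 0 in 33 of 45 (median -0.07), with Cdk1, the mitotic kinase, at -0.19 (SE 0.08). Unfolded protein response (median -0.07), glycolysis and hypoxia (-0.02), p53 target (0.0015), fatty acid synthesis (-0.07) and heat shock genes (-0.06) had medians between -0.07 and 0.0015. The glycolysis and hypoxia median turned to 0.20 without KO replicate 2 and to 0.24 without Het replicate 3, and ran from -0.25 to 0.24 over the 24 alternatives. Fatty acid synthesis turned to 0.07 without KO replicate 2 and 0.05 without Het replicate 3, unfolded protein response to 0.05 and p53 targets to -0.06 without KO replicate 2, where the heat shock median was -0.02 and that of cell cycle genes -0.01. Actin filament end and tropomyosin genes, the family of Tmod3, had 20 of 28 below 0 with a median of -0.07, and Tmod3 was the only one called.

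The octamer partners and reported targets of POU2AF1 held 11 tested genes, 5 above and 6 below 0, with a median log2 change of -0.02, or -0.17 without Het replicate 3 and -0.04 without KO replicate 2. Apart from Pou2af1 none was called. Pou2f1, which encodes OCT1, had a log2 change of 0.10, and Spib, a lymphoid factor whose gene is a reported POU2AF1 target in B cells, had 3.95, 4.25, 5.19 and 3.65 CPM in KO cells, against 8.10, 6.96, 2.48 and 3.56 CPM in Het cells (log2 change -0.31, SE 0.34, edgeR adjusted p = 0.863). The Spib groups overlapped, with Het replicates 1 and 2 high and 3 and 4 low. The octamer, searched as ATGCAAAT on both strands, was found in 0 of 10 windows of this list, against 145 of 9086 tested genes (1.6%), which draws nothing about the factor.

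The same contrast in CD4 cells, from 4 KO and 4 Het libraries, called the same 2 genes among 12719 tested (0.0157%), and 465 (3.66%) had an unadjusted p under 0.05, 248 higher (1.95%) and 217 lower (1.71%). Tmod3 averaged 227 ± 20.7 CPM in KO and 117 ± 3.43 CPM in Het CD4 cells (SD, n = 4 each), a log2 change of 0.95. The change in CD8 minus that in CD4 cells was 0.07 (SE 0.10, edgeR adjusted p = 0.993). Pou2af1 had a log2 change of -3.19 in CD4 cells. No gene of 13288 passed the test of the difference between cell types by edgeR or DESeq2, and 693 (5.22%) had an unadjusted p under 0.05 by edgeR. Of the 34 interferon genes, 27 were among these, and their median log2 change was -0.20 in CD4 cells, with 2 of 34 above 0. Cxcl10 had a log2 change of -0.75 in CD4 cells, and its difference was 2.80 (SE 0.67, edgeR adjusted p = 0.93). The stress response list had a median of 0.05 in CD4 cells, with 7 of 24 differences at an unadjusted p under 0.05, and the MHC class I list -0.04, with 10 of 19. Of the 12 higher genes named by p, 5 were above 0 in CD4 cells, and of the 12 lower genes 6 of the 10 tested there were below 0. Bag3 (-0.29) was the one of them that had an unadjusted p under 0.05 in CD4 cells in the same direction.

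**Figure D4:**
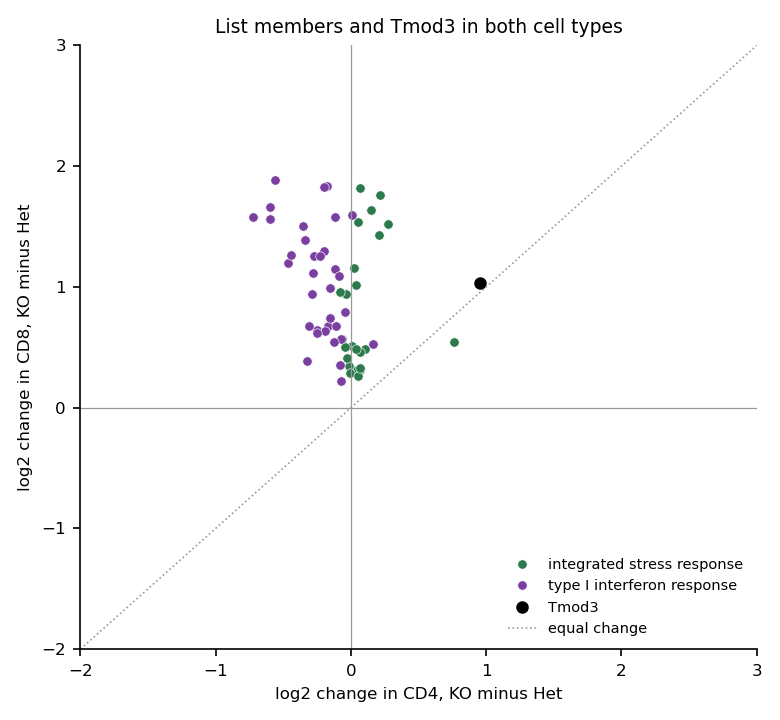
Log2 change of KO against Het in CD8 cells (vertical axis) and CD4 cells (horizontal axis) for tested members of the stress response and interferon lists and for Tmod3; the dotted line marks equal change. Tmod3 (1.03 and 0.95) lies near the line, and the list members lie above 0 in CD8 cells and around or below 0 in CD4 cells.

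The number of calls and the medians of the stress response and interferon lists differed with the replicate numbers compared. Within replicates 1 and 2 alone, 242 of 12570 genes were called (1.93%), 194 higher and 48 lower, with 25 interferon and 18 stress response genes among them. Within replicates 3 and 4 alone, 1 of 12690 was called (0.00788%), Pou2af1. Tmod3 kept its size there, with a log2 change of 1.13 (adjusted p = 0.0612) against 0.94 within replicates 1 and 2. The stress response median was 0.94 within replicates 1 and 2 and 0.15 within 3 and 4, and the interferon median 1.42 and 0.58. No gene passed the edgeR test of the difference between the pairs, chosen after the data were seen, and 1317 (10.4%) had an unadjusted p under 0.05. That group held 20 of 24 stress response genes, all larger in replicates 1 and 2, and 1 of 34 interferon genes. All 24 genes named by p kept their direction in both pairs, and in 23 of them the change was larger within replicates 1 and 2. For the 11 higher and 11 lower genes without overlap, the choice of genes on these same libraries fixed that direction. It is therefore no support. The labels say nothing of what the numbers stand for. Het replicates 1 and 2 were both female and Het replicates 3 and 4 male, so sex and number cannot be told apart in Het cells. KO replicate 2 was female and KO replicates 1, 3 and 4 male. Only the comparison within replicates 3 and 4 was therefore matched for sex. With Ddx3y in the fit, the stress response median was 0.52 and the interferon median 1.00.

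**Figure D5:**
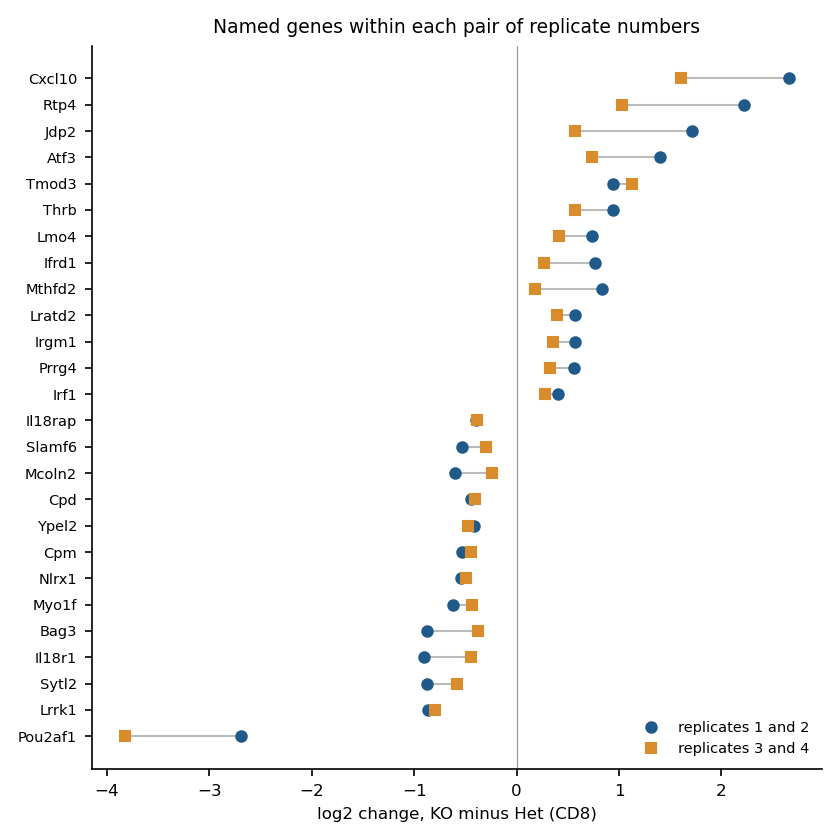
Log2 change of KO against Het in CD8 cells (horizontal axis) within replicates 1 and 2 (circles) and within replicates 3 and 4 (squares), for the 2 called genes and the 24 named by p (rows). Each gene keeps its side of 0, which is fixed beforehand for genes whose KO and Het values do not overlap. Tmod3 has 0.94 and 1.13, and most others are smaller in replicates 3 and 4.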

How the data were processed

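RNA of sorted, activated T cells was sequenced from 24 libraries, 4 for each of 2 cell types and 3 genotypes. The authors deposited raw counts per gene, and separately a normalized signal per gene. Per the submitters' processing notes, Trimmomatic 0.35, STAR 2.7.1a and DESeq2 1.26.0 were used with the GRCm38 build; the strand setting is not given in the sources used here. Summary entries of unmapped, multimapping, ambiguous and unassigned reads made up 31.6% to 33.5% of all entries and were left out. Counts were analysed with edgeR 4.0.16 in R 4.3.3: genes with low counts were removed (filterByExpr), libraries were scaled by TMM (factors 0.989 to 1.02), and KO was tested against Het by the quasi-likelihood test with all 12 CD8 libraries in the fit (9 residual degrees of freedom) and Benjamini-Hochberg adjustment over all genes tested, called under 0.05. The CD8 and CD4 changes were compared by an interaction term over 24 libraries. DESeq2 1.42.0, limma 3.58.1 on log2(signal + 1), other filters, covariates and left-out libraries were alternatives. The script was tested on simulated data.

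CPM are scaled by library and not by gene length, so levels are compared between libraries and not between genes. Named genes were Pou2af1, every called gene, the 12 of lowest p each way with a mean of at least 1 CPM, up to 4 members of lowest p in a list, and the genes that differed between Cre carriers and controls; genes whose sequence is printed or that adjoin Tmod3 were added after their values were seen. Predicted genes, receptor segments and sex-linked genes were left out of the 12. The genes and the 37 lists were chosen with earlier results of these data known. A floor of 3 counts corresponds to 0.181 to 0.239 CPM over the libraries and covers counting error only. Gene positions are those deposited with the counts (GRCm38), and positions of promoter windows are those of RefSeq on GRCm38.p6. The closest of 18 within-group pairs of CD8 libraries still differed beyond counting noise, with a chi-square of 3.21 for each degree of freedom. Values of some single genes are not reported here.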

Additional observations from a re-analysis of the deposited data

Results flagged for a closer look

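In 78 groups of 4 KO or 4 Het libraries that were checked, 8 held a library whose gap to its nearest neighbour took up more of the range of the group than the 95% critical value of Dixon allows; chance flags about 1 in 20 groups. Lratd2 stood at 63.3 CPM in Het replicate 3, above the other Het libraries. Rtp4 stood at 9.19 CPM in KO replicate 3 and Myo1f at 5.85 CPM in KO replicate 2, both below the other KO libraries. Lrrk1 stood at 15.4 CPM in Het replicate 1, above the other Het libraries. KO replicate 1 had the most gene counts of its group (16.6 M). KO replicate 4 had the lowest mitochondrially encoded share of its group (3.55%), the lowest share in the 10 most counted genes (5.66%) and the highest scaling factor (0.999).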

How the results depend on the processing

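The 2 called genes became 3 with no filter on low counts (Atf3 added), 19 by the DESeq2 Wald test (13 higher and 6 lower), 242 with replicates 1 and 2 only, 1 with replicates 3 and 4 only, and 2 to 4 when a library was left out. The 4 came without Het replicate 3, which added Lratd2 (adjusted p = 0.00601) and Irgm1 (adjusted p = 0.0362); the cause was not tested. Pou2af1 was called under all 24 alternatives, and Tmod3 under all but replicates 3 and 4 only. DESeq2 size factors, limma on the normalized signal, both genotypes alone, all 24 libraries and covariates left 2 calls. With the replicate block the test also called 2 genes, 1 higher and 1 lower. Same-numbered KO and Het libraries deviated together with correlations of 0.24, 0.42, 0.08 and 0.37, and 3 of 4 KO libraries correlated best with the Het library of their own number, a hint from the data and not the design. One pair lay under 0.1, the limit set for every pair, and the labels do not say what the numbers mark, so the main test has no block. KO libraries 1 and 2 and Het libraries 1 and 2, and likewise 3 and 4, correlated at 0.08 to 0.53, against -0.48 to -0.13 between numbers 1 or 2 and 3 or 4. The difference between cell types gave 0 calls under each of 22 alternatives, and CD4 cells gave 2 to 3. Of 1894 values for 79 named genes, 8 in 8 genes turned round. With replicates 3 and 4 only these were Rps3a1 (-0.0556), Nupr1 (-0.24), Ifng (0.0347) and Spib (0.55). With 1 library left out, values ran from -0.0027 (without KO replicate 2) to 0.0813 for Rps3a3, from -0.0395 (without KO replicate 2) to 0.202 for Pou2f1, from -0.0368 to 0.0121 (without Het replicate 4) for Tpm3 and from -0.18 to 0.0048 (without Het replicate 3) for Cd1d1. Of these 8 genes, Ifng passed the test under 1 alternative, lower with replicates 1 and 2 only (-0.53, adjusted p = 0.0326). Of 885 list medians, 857 stayed within the spread between libraries, which is wide for glycolysis and hypoxia genes.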

Other observations

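Glycolysis and hypoxia genes had 12 of 29 tested above 0 in KO against Het cells and a median log2 change of -0.02, which was 0.24 without Het replicate 3 and 0.20 without KO replicate 2. Single members spread widely among the Het libraries. Vegfa, a hypoxia-induced growth factor, had 30.8, 63.7, 33.2 and 49.2 CPM in KO cells, against 8.47, 11.1, 43.8 and 14.3 CPM in Het cells (log2 change 1.19, SE 0.49, edgeR adjusted p = 0.699). Ndrg1, another hypoxia-responsive gene, had 14.5, 29.4, 18.4 and 31.0 CPM in KO cells, against 8.17, 9.23, 33.4 and 10.2 CPM in Het cells. Pfkp, a phosphofructokinase, had 605, 609, 696 and 821 CPM in KO cells, against 409, 425, 880 and 570 CPM in Het cells. Hif1a, the hypoxia-regulated transcription factor, had 442, 538, 534 and 540 CPM in KO cells, against 319, 331, 571 and 416 CPM in Het cells. In all 4 genes Het replicate 3 was the highest Het library and lay above KO replicate 3, as it did for the interferon and stress response lists.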
